A study of Mus musculus with 4 samples.

Results

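The Reg genes encode small secreted proteins with a single C-type lectin fold. The 6 studied here, Reg1, Reg2, Reg3a, Reg3b, Reg3g and Reg4, were taken by gene symbol, and each had 1 row among the 22632 genes of the expression table. RNA came from mouse small intestinal organoids, epithelial cultures grown from isolated crypts in a gel of basement membrane proteins with EGF, Noggin and R-spondin, harvested 24 hours after seeding. There were 4 groups with 1 library each, so none of the differences could be set against a spread between replicates, and no p-value is given. Yap+/- organoids (Yap+/fl;VillinCre) carried 1 deleted and 1 working copy of Yap1, the gene for a transcriptional co-activator held back by the Hippo pathway. Yap-/- organoids (Yapfl/fl;VillinCre) had lost both copies. Both lines carried VillinCre, which acts in the intestinal epithelium. YapTg organoids carried a doxycycline-inducible wild-type Yap transgene under a Cre-driven reverse tetracycline transactivator (rtTA), and were kept either without doxycycline or with the drug, given as 1.5 mg/ml in the labels. The labels do not name the Cre of the YapTg line, the age of the mice or the number of animals. Doxycycline was not given to organoids without the transgene in the libraries used here, so the drug and the transgene cannot be told apart.

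Reg proteins were first described in regenerating pancreatic islets and are made in quantity by the epithelium of the small intestine. Reg3b and Reg3g act as antimicrobial lectins that bind bacterial surfaces and keep bacteria away from the epithelium. In the animal they are induced by microbial signals through MyD88 and by interleukin-22 through STAT3. Reg1 and Reg2 belong to the branch first tied to islet growth. Reg4 stands apart in sequence and is known from enteroendocrine and other secretory cells of the gut.

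Library totals recovered from the values were between 44934170 and 75269003 reads. Levels are in RPKM, reads scaled to the length of the gene and to the total of the library, and a single read of a gene of 1 kb was worth 0.0133 to 0.0223 RPKM. Yap1 followed the labels, at 16.7, 3.35, 25.1 and 1039 RPKM across the Yap+/-, Yap-/-, uninduced and induced libraries. All 7 epithelial markers listed reached 1 RPKM in at least 1 library. Of 10 stromal markers 1 did, of 9 immune markers 4 and of 6 red blood cell markers 0. The pancreas also makes Reg proteins, and 5 of 18 acinar and islet markers reached 1 RPKM. The acinar gene Amy2a5 was at 0 in all 4 libraries, and Cpa1 was at 0.0253 RPKM or less. Clps, the colipase gene, led that list, with 43.9, 72.0, 81.8 and 43.0 RPKM across the Yap+/-, Yap-/-, uninduced and induced libraries. Ctrb1, a chymotrypsinogen gene, was at 11.6, 18.4, 2.76 and 0.195 RPKM in the same order.

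In the GRCm38.p6 annotation, 5 of the 6 genes lie in one cluster on chromosome 6. Reg3b, Reg3d, Reg3a, Reg2, Reg1 and Reg3g follow each other there over 98.0 kb, and Reg4 is on chromosome 3. No other protein-coding gene lies between them. The nearest coding gene before the cluster, Lrrtm1, is 1111 kb away and was at 0.00974 RPKM in Yap-/- and at 0 in the other 3 libraries. The RefSeq promoter windows, from 250 bases before to 50 bases after each gene start, matched for all 6 members. The windows of Reg1, Reg3a, Reg3b and Reg3g are printed because these are the 4 genes with the largest differences under doxycycline. Each is read 5' to 3' along its own gene. Capitals mark matches on either strand to TATAAA (the TATA box core), TTTATG (a CDX core), TTCNNNGAA (a STAT site) and GGAATG (a TEAD core).
Reg1, chr6:78425733-78426032, plus strand: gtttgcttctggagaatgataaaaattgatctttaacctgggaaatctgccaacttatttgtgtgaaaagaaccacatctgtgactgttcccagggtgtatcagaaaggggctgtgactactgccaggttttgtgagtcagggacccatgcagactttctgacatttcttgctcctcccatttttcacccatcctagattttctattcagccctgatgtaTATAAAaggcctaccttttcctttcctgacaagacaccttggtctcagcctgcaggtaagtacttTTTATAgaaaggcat
Reg3a, chr6:78380459-78380758, plus strand: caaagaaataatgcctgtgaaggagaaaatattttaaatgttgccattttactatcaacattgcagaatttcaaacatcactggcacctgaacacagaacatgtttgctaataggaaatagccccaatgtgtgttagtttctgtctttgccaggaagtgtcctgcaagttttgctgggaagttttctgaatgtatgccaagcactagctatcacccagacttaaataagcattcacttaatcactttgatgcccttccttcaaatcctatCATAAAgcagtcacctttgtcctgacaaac
Reg3b, chr6:78370635-78370934, plus strand: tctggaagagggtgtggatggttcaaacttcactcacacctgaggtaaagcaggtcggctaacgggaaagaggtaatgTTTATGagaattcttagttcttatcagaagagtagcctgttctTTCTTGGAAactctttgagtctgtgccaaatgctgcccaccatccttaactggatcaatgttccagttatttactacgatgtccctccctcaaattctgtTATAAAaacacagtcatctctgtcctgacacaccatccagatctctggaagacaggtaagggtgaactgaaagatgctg
Reg3g, chr6:78468825-78469124, minus strand: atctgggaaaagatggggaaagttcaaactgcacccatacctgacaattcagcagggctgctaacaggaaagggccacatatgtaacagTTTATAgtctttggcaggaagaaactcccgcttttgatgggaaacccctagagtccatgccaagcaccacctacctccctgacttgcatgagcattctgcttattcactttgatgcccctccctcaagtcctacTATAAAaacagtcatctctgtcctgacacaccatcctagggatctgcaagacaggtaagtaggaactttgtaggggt

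Reg1, Reg2, Reg3b and Reg3g had TATAAA just upstream of the start. It began at base -30 from the start in Reg1 and Reg2, at -29 in Reg3b and at -27 in Reg3g. In all, 13.6% of 32851 promoter windows of the same length hold TATAAA on either strand. Reg3a and Reg4 had no match. The TATA motif was added after the windows were seen. TTCNNNGAA occurred in Reg3b alone of the 6, from base -129 to -121, and 8.30% of all windows hold it. TTTATG occurred in Reg3b, from -172 to -167, and on the opposite strand in Reg3a, from 20 to 25, against 11.9% of all windows. In Reg3a that match, CATAAA, is followed by a stretch ending in gtcctgaca, as TATAAA is in Reg3b and Reg3g. The Reg3a window thus sits further upstream relative to this stretch. GGAATG occurred on the opposite strand of Reg2, from -169 to -164, and in none of the other 5 members, against 14.7% of all windows. The HNF4 motif CAAAGTCCA occurred in none, against 0.475% of all windows. None of these matches overlapped another. The windows of Reg3b and Reg3g were 68.5% identical in alignment and shared a run of 29 bases. Those of Reg3a and Reg3g were 69.0% identical, while Reg1 and Reg4 reached 49.4%.

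Transcripts of the members were distinct in sequence. Among the Reg3 members, identity over the aligned part ran from 66.9% (Reg3a and Reg3g) to 69.9% (Reg3b and Reg3g). The longest run of identical bases between any pair of members was 35, between Reg3b and Reg3g. Reg1 and Reg2 were 75.5% identical over 466 aligned positions, with a longest run of 19. The sources used here do not give the read length or how reads with several matches were handled, so any sharing of reads between members is not known.

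All members but Reg2 were expressed in every library. Reg1 was the highest in 3 of 4 libraries, at 1135 RPKM in Yap+/-, 795 in Yap-/- and 555 in uninduced YapTg organoids, and stood at 33.6 in induced ones. In the Yap+/- library it ranked 18th among all genes of the table, and in the induced library 1428th. Reg2, its nearest relative, was almost silent, with 6 reads (0.152 RPKM) in Yap+/-, 8 reads (0.171 RPKM) in Yap-/- and 0 reads in both YapTg libraries. The level of 3 reads, taken as the limit for a count of 0, was 0.0965 RPKM without and 0.0576 RPKM with doxycycline, and the exact 95% Poisson intervals reached 0.119 and 0.0708 RPKM. Reg2 stayed under the floor of 1 RPKM in all comparisons and enters none of the counts below.

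In the Reg3 branch, Reg3a was at 178, 288, 108 and 3.98 RPKM across the Yap+/-, Yap-/-, uninduced and induced libraries. Reg3g was at 99.0, 73.3, 93.8 and 22.6 RPKM in the same order, and Reg3b at 40.8, 38.6, 55.3 and 14.2 RPKM. The antimicrobial pair thus varied less between libraries than Reg3a did, and Reg3g was above Reg3b by 1.59 to 2.43 times in each of the 4. Reg4 was at 214, 220.2, 114 and 59.9 RPKM, with overlapping counting intervals in Yap+/- and Yap-/-. For each of these 5 genes the induced YapTg library was the lowest of the 4.

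**Figure D1:**
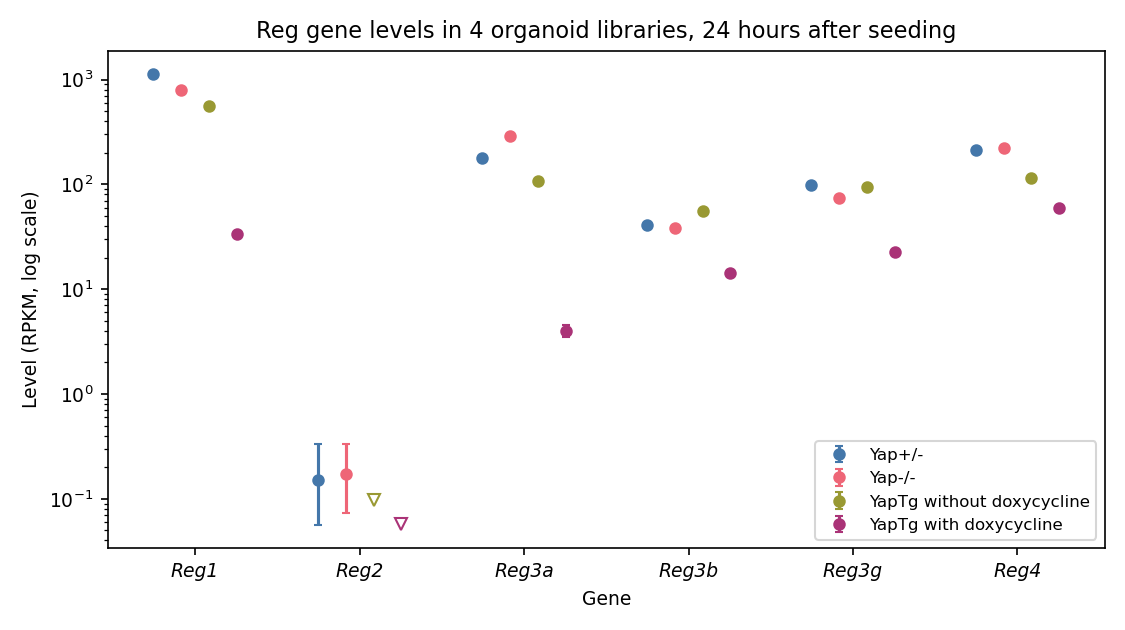
Level of each Reg gene in RPKM (log axis) in the 4 libraries, with exact 95% Poisson intervals that cover counting error only and are mostly smaller than the points. Open triangles show the level of 3 reads where 0 were counted. The induced YapTg library is the lowest for Reg1, Reg3a, Reg3b, Reg3g and Reg4, and Reg2 is under 1 RPKM throughout.

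The order of levels per length was Reg1, Reg4, Reg3a, Reg3g, Reg3b and Reg2 in both the Yap+/- and the uninduced library. In the uninduced library the counting intervals of Reg4 (111 to 117 RPKM) and Reg3a (105 to 112 RPKM) overlapped. In Yap-/- organoids Reg3a and Reg4 changed places, with intervals of 283 to 292 and 217 to 224 RPKM. In induced organoids Reg4 came first, and Reg1 stood at 0.562 times its level, followed by Reg3g, Reg3b and Reg3a.

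Summed over the 6 genes, the level was 1667, 1415, 926 and 134 RPKM across the Yap+/-, Yap-/-, uninduced and induced libraries. In reads, the 6 genes took 0.135%, 0.117%, 0.0751% and 0.0119% of the library. Reg1 made up 68.1%, 56.2%, 59.9% and 25.1% of the summed level in these libraries. Reg4 made up 12.8%, 15.6%, 12.3% and 44.6% in the same order. Reg3a took 20.3% of the sum in Yap-/- against 10.7% in Yap+/-, and 2.97% in the induced library.

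**Figure D2:**
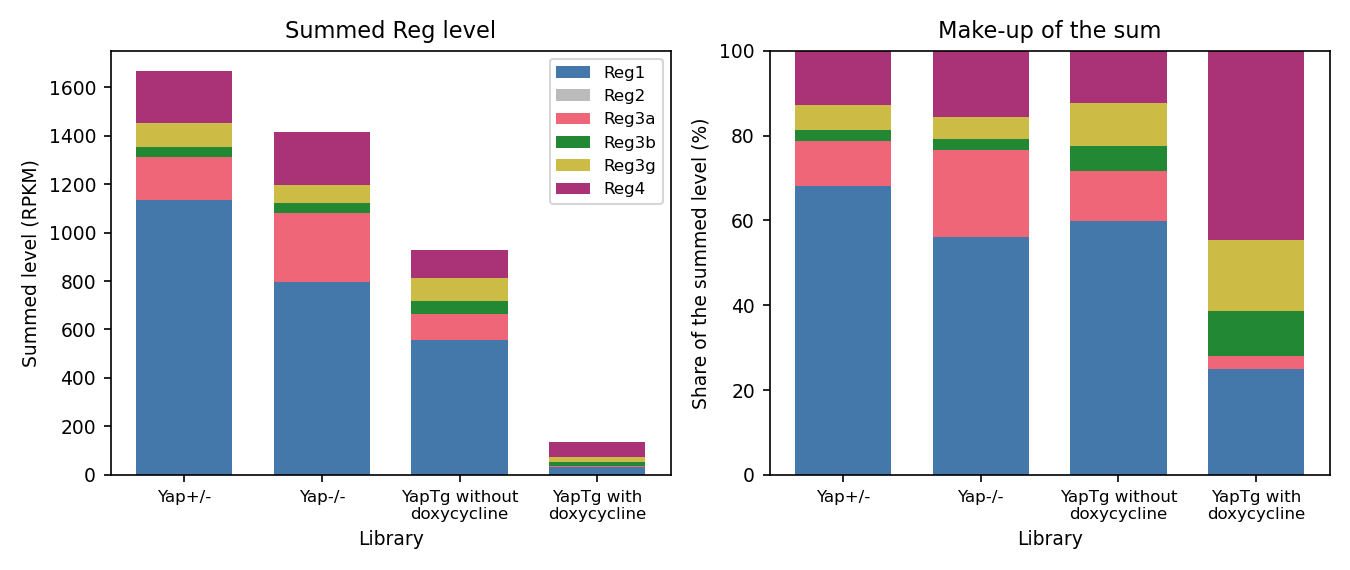
Left, summed level of the 6 Reg genes in RPKM per library, stacked by gene. Right, the share of each gene in that sum in percent. The sum is 1667 RPKM in Yap+/- and 134 RPKM in induced YapTg organoids, where Reg4 holds 44.6% and Reg1 25.1%.

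Doxycycline in YapTg organoids gave the largest differences. Reg3a was 27.2-fold and Reg1 16.5-fold lower, the antimicrobial lectin genes Reg3b and Reg3g were about 4-fold lower, and Reg4 was just under 2-fold lower. The summed level was 6.90-fold lower. Fewer cells of the types that make a transcript and less RNA per cell cannot be told apart in whole organoids, here or in the other comparisons.

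Genes with 1 RPKM or more in at least 1 library of a pair (the floor) were compared, and a 2-fold ratio of RPKM plus 1 was called higher or lower. By this rule 4 of 5 members at the floor were lower with doxycycline, beside 5.8% of 11108 genes, and 0 were higher, beside 5.85%. The median log2 ratio of the 5 was -2.01, and that of all genes was -0.04. The 95% counting interval of the Reg3a fold was 23.9 to 31.0, from 4070 reads in the uninduced to 251 in the induced library. No gene of the 11108 had a lower log2 ratio than Reg3a (-4.45). That of Reg1 was 15.7 to 17.3, and 4 genes, Reg3a among them, lay below its log2 ratio of -4.00. The intervals of Reg1 and Reg3a do not overlap each other.

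Reg3g was 4.15-fold lower (3.90 to 4.43) and Reg3b 3.90-fold lower (3.59 to 4.24). These 2 intervals overlap, so the antimicrobial pair was not told apart by counting error. By log2 ratio, 119 genes lay below Reg3g (-2.01) and 145 below Reg3b (-1.89). Reg4 was 1.91-fold lower (1.83 to 1.98), at a log2 ratio of -0.92, just outside the 2-fold rule, and 725 genes lay below it. The ratios between members therefore differed between the libraries. Reg4 stood at 1.06 times Reg3a in uninduced and 15.0 times in induced organoids, and Reg3a at 1.15 and 0.177 times Reg3g.

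**Figure D3:**
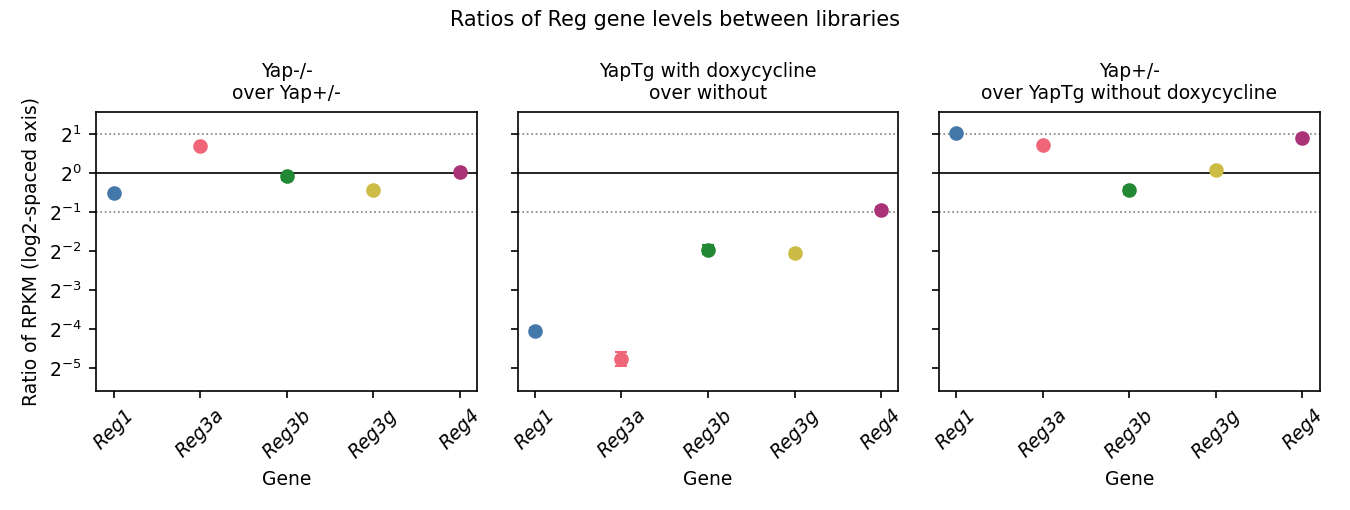
Ratio of RPKM for each Reg gene above the floor in the 3 comparisons (axis in powers of 2), with exact 95% counting intervals, a solid line at 1 and dotted lines at 2-fold. With doxycycline Reg3a (27.2-fold) and Reg1 (16.5-fold) lie furthest below 1, and in Yap-/- over Yap+/- all 5 lie within the dotted lines.

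Loss of Yap asks the opposite question, and none of the members reached 2-fold there. Reg3a was higher in Yap-/- than in Yap+/- organoids, Reg1 and Reg3g were lower, and Reg3b and Reg4 were close to equal. Of 5 members at the floor, 0 were higher at 2-fold, beside 0.336% of 10710 genes, and 0 were lower, beside 0.57%. Most genes differed little here, with a median absolute log2 ratio of 0.09.

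Reg3a was 1.62-fold higher in Yap-/- organoids (95% interval 1.57 to 1.66), at a log2 ratio of 0.69 that 96 genes exceeded. Reg1 was 1.43-fold lower (1.41 to 1.45), and 210 genes lay below its log2 ratio of -0.51. Reg3g was 1.35-fold lower (1.29 to 1.41), with 293 genes below its log2 ratio of -0.43. Reg3b was 1.06-fold lower, with an interval of 0.990 to 1.13 that includes no difference. Reg4 was 1.03-fold higher (1.01 to 1.06), at a log2 ratio of 0.04 that became -0.00 (-0.0025) after median-ratio scaling, so it has no settled direction. The members of the chromosome 6 cluster therefore lay on both sides of 1. Reg1 was 6.38 times the level of Reg3a in Yap+/- and 2.76 times in Yap-/- organoids.

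The Yap+/- and uninduced YapTg libraries, which have neither full loss of Yap nor induction, served as a yardstick. They differ in organoid line and genotype, and each is also the reference of another comparison, so ratios that share a library are not independent. Reg1 was 2.05-fold higher in Yap+/- (95% interval 2.01 to 2.08), Reg4 1.87-fold (1.81 to 1.93) and Reg3a 1.64-fold (1.58 to 1.71). Reg3g was 1.06-fold higher (1.01 to 1.11) and Reg3b 1.36-fold lower (1.27 to 1.45). Reg1 alone was higher at 2-fold, 1 of 5 members beside 1.11% of 10883 genes, and 0 were lower, beside 0.726%. Median-ratio scaling shifted the median of all genes by 0.12 on the log2 scale in this pair, and Reg4 then passed 2-fold as well (log2 ratio 1.04). The split of all genes was 121 higher and 79 lower as deposited, 171 and 62 after median-ratio scaling, and 159 and 63 after upper-quartile scaling.

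Set side by side, the Reg1 log2 ratio was 1.03 between the reference libraries, -0.51 with loss of Yap and -4.00 with doxycycline. For Reg3a the 3 values were 0.71, 0.69 and -4.45, and for Reg4 they were 0.90, 0.04 and -0.92. The differences of Reg1, Reg3a, Reg3b and Reg3g with doxycycline were thus larger than those between the reference libraries, while the Reg4 difference was about as large. With loss of Yap, Reg1, Reg3b and Reg4 differed less than between the reference libraries, Reg3a about as much and Reg3g more.

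**Figure D4:**
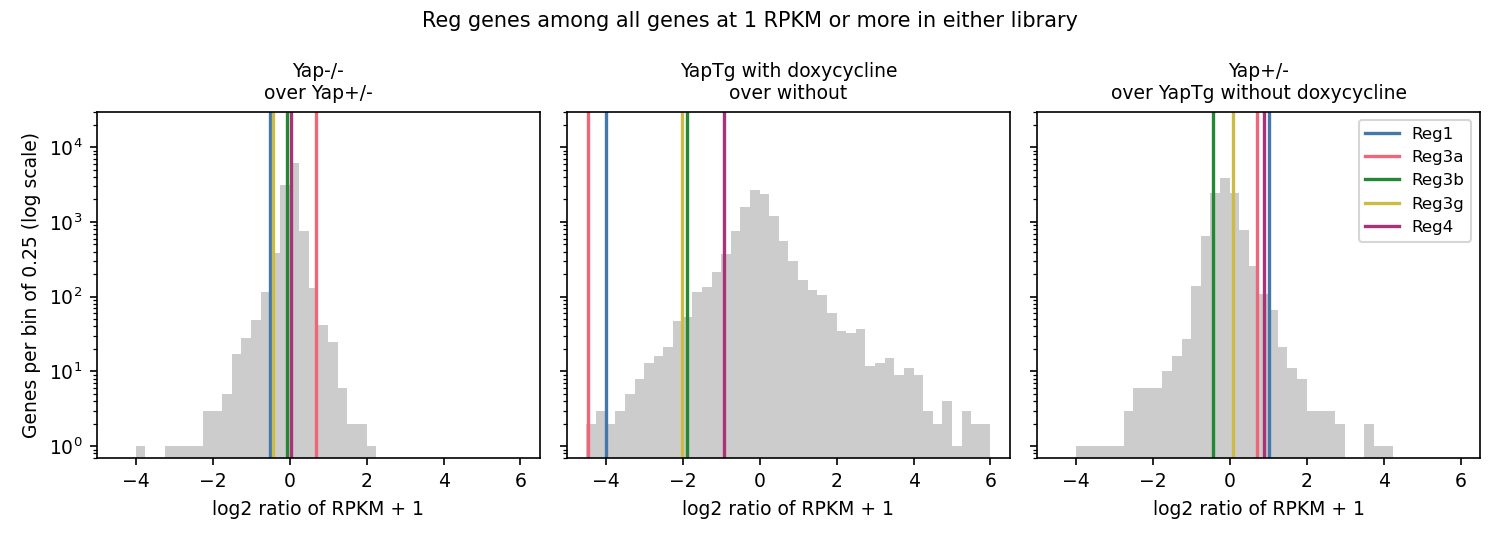
Log2 ratios of RPKM plus 1 for every gene above the floor (grey, bins of 0.25, log count axis), with a line for each Reg gene. With doxycycline Reg3a (-4.45) and Reg1 (-4.00) mark the low end of all genes, and with loss of Yap all 5 genes lie between -0.51 and 0.69.

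Genes of pathways known to act on Reg genes, and a proposed receptor for Reg proteins, were also compared with and without doxycycline. Of 14 listed genes of cytokine receptor to STAT3 signalling, 10 were at the floor, 1 was higher and 0 were lower (median log2 ratio 0.23). The interleukin-22 receptor chain Il22ra1 was at 16.4 RPKM without and 19.4 with doxycycline, and its partner Il10rb at 15.5 and 13.4. Stat3 itself was at 7.49 and 12.8 RPKM. Pim1, a kinase gene that STAT3 is known to induce, was the 1 higher gene, at 5.83 and 31.5 RPKM. Of the 10 genes of this list at the floor, 7 had log2 ratios above 0 and 3 below. Socs3 was among the lower 3, within 2-fold, at a log2 ratio of -0.126. Of 14 IL-17 and MyD88 inputs, 10 were at the floor and 0 passed 2-fold (median -0.07). Over all genes 5.85% were higher and 5.8% lower, so these small counts do not set either list apart. The adaptor gene Myd88 itself was at 10.2 and 11.4 RPKM, and Il18, a cytokine gene of the epithelium, stood furthest apart at 49.4 and 26.8. Extl3, proposed as a receptor for Reg proteins, was at 6.85 and 5.49 RPKM.

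With loss of Yap none of these signalling genes passed 2-fold, with list medians of -0.03 and 0.05. Few genes did so at all there, with 0.336% higher and 0.57% lower over all genes. Il22ra1 was at 15.5 RPKM in Yap+/- and 16.0 in Yap-/-, and Extl3 at 5.27 and 6.03. Bcl3, an NF-kappaB partner, stood furthest apart in the STAT3 list, at 8.23 and 6.46 RPKM, and Il18 in the other, at 56.5 and 37.7. Between the reference libraries 0 members of either list passed 2-fold, with Il6st (3.03 RPKM in Yap+/- and 4.14 in uninduced YapTg) and Il17rc (19.7 and 28.3) furthest apart. Over all genes 1.11% were higher and 0.726% lower in that pair.

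Other secreted proteins of mucosal defence were lower with doxycycline in 6 of 11 members at the floor and higher in 2. The shares of all genes were 5.8% lower and 5.85% higher. The median log2 ratio of the list was -1.10. This list shares genes with the Paneth and goblet marker lists below, among them Ang4, Itln1 and Zg16. Its counts are therefore not independent of theirs. Pigr, which carries IgA across the epithelium, was 6.02-fold lower (453 and 75.2 RPKM). Dmbt1, a scavenger receptor-like mucosal protein, was 5.71-fold lower and the mucus lectin gene Zg16 4.18-fold lower. The 2 higher were Wfdc2 (1.15 and 21.1 RPKM) and S100a9 (listed at 0 and 1.02 RPKM). With loss of Yap the same list had 2 of 9 higher, Ang4 and the lectin gene Itln1, and 0 lower. The shares of all genes were 0.336% higher and 0.57% lower there. Ang4, which encodes a Paneth cell ribonuclease, stood furthest apart at 220 and 482 RPKM. Pigr, Dmbt1, Zg16 and S100a9 were picked for naming with their values known, as were Il22ra1, Il10rb, Stat3, Socs3 and Myd88.

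Many markers of the cell types that make Reg proteins were also lower with doxycycline, though not all, and by unlike amounts. Their part in the Reg differences was not tested. The shares of all genes were 5.8% lower and 5.85% higher. Of 12 enterocyte markers 8 were lower and 0 higher (median -1.88), and their summed level went from 4962 to 1518 RPKM. All 10 goblet markers were lower (median -2.05), from 2732 to 698 RPKM in sum. Of 11 enteroendocrine markers at the floor 6 were lower (median -1.06), from 260 to 122 RPKM. Paneth markers were lower in 3 of 9 (median -0.68), from 12029 to 7926 RPKM. The Reg median of -2.01 over 5 genes lay between those of the enterocyte and goblet lists. The furthest gene of each list was Fabp1, a fatty acid carrier gene of enterocytes (18.3-fold lower), and Agr2, a goblet cell folding enzyme gene (6.53-fold). In the other lists it was Neurog3, the endocrine progenitor factor (9.58-fold), and the Notch ligand gene Dll4 (5.61-fold, 3.02 and 0.538 RPKM). Within 2-fold were, among others, the enterocyte markers Alpi (370 and 349 RPKM) and Ada (11.3 and 16.4) and the Paneth marker Nupr1 (12.9 and 12.9). Epithelial markers were higher in 2 of 7, with the keratin gene Krt18 at 261 and 1352 RPKM. Stromal markers summed to 2.59 and 0.563 RPKM and immune markers to 11.3 and 13.2 RPKM.

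With loss of Yap the lineage lists had medians above 0, and 65.5% of all genes lay above 0. Reg3a (log2 ratio 0.69) and Reg4 (0.04) lay above 0 as well, and Reg1 (-0.51), Reg3g (-0.43) and Reg3b (-0.08) below. The medians were 0.34 for enterocyte, 0.43 for goblet and 0.23 for enteroendocrine markers, with 0 genes past 2-fold in each. Over all genes 0.336% were higher and 0.57% lower with loss of Yap. Paneth markers had a median of 0.92, with 4 of 9 higher. Between the reference libraries 1.11% of all genes were higher and 0.726% lower in Yap+/-. Paneth markers had a median of -0.91 in that pair, with 4 of 9 lower, and goblet markers one of -0.29, with 1 of 10 lower. Enterocyte markers had a median of 0.60 there, with 3 of 12 higher, and enteroendocrine markers one of 0.77, with 3 of 12 higher, beside the Reg median of 0.71. The part of these markers in the Reg differences of either pair was not tested. The Reg median with loss of Yap was -0.08 over 5 genes. Summed enterocyte markers were at 7953 RPKM in Yap+/- and 11065 in Yap-/-, and summed Paneth markers at 4860 and 9801.

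**Figure D5:**
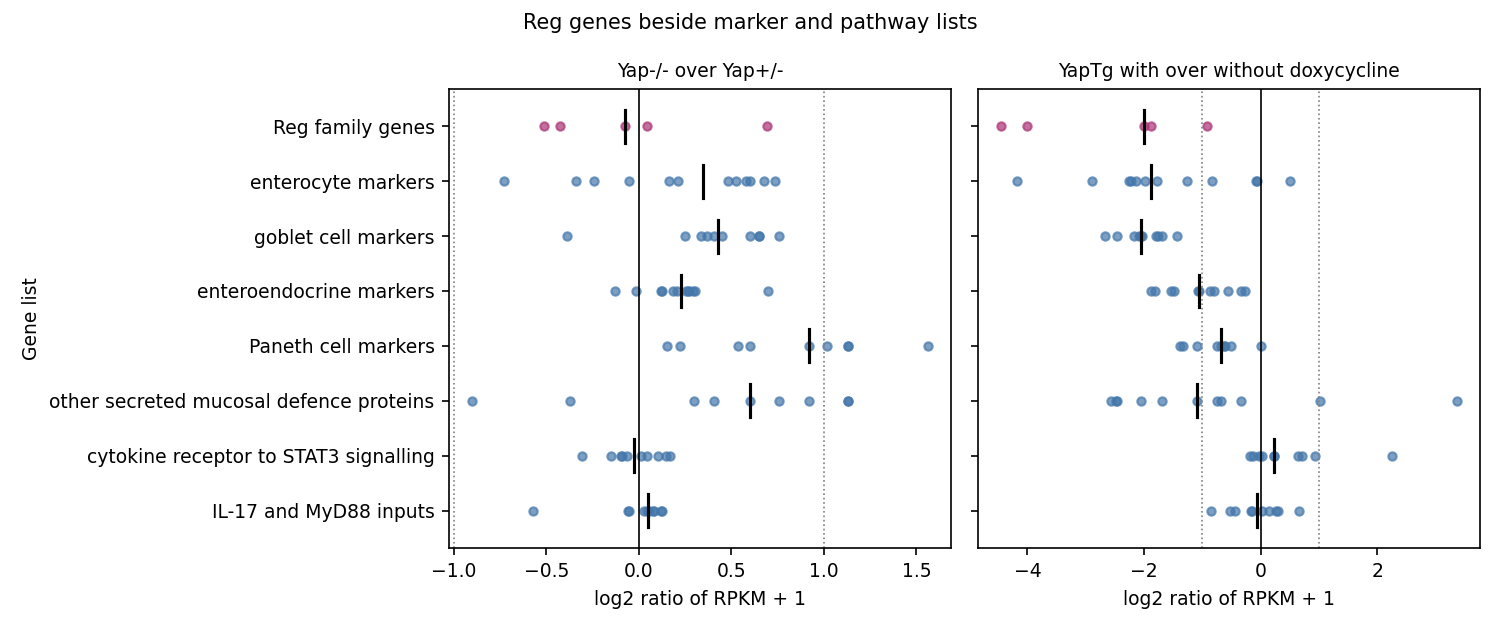
Log2 ratios of RPKM plus 1 for Reg genes and 7 lists (points are genes at the floor, black bars are list medians, dotted lines mark 2-fold), with loss of Yap on the left and with doxycycline on the right, on separate scales. With doxycycline the Reg median of -2.01 lies beside the enterocyte (-1.88) and goblet (-2.05) medians, while the STAT3 list sits at 0.23 and the IL-17 and MyD88 list at -0.07. The mucosal defence list shares genes with the goblet and Paneth lists.

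Transcription factors of the intestinal epithelium were mixed with doxycycline, with 4 of 14 lower, 1 higher and a median of -0.14. The shares of all genes were 5.8% lower and 5.85% higher. The higher one was Klf4, at 7.90 and 43.8 RPKM. The 4 lower were the secretory factor genes Atoh1 (6.93-fold) and Spdef (6.84-fold), the nuclear receptor gene Hnf4g (3.25-fold) and Cdx1 (2.13-fold), while Cdx2 was at 62.5 and 69.5 RPKM and Hnf4a at 187 and 196. These 6 genes were named after their values were seen. With loss of Yap 1 of 14 was lower, Isx, at 10.6 and 0.429 RPKM, and between the reference libraries it was again Isx, at 10.6 in Yap+/- and 72.2 RPKM in uninduced YapTg organoids.

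The genes most like each member over the 4 libraries were taken by Euclidean distance between centred log2 values of RPKM plus 1. The 7352 genes compared had 5 RPKM or more in a library. Members, alpha-defensin genes and predicted genes (names with Gm, Rik, AC or BC) were left out beforehand. Over 4 points such likeness is a description only. Nearest to Reg3a was Fabp1, at a distance of 0.20, with 3457, 5766, 1938 and 106 RPKM across the Yap+/-, Yap-/-, uninduced and induced libraries. Cyp2d26 (0.49) and the metallothionein gene Mt2 (0.53) followed. Reg1 had no near match, since Leap2 (0.66), which encodes a secreted antimicrobial and hormone-like peptide, Ces1f (0.67) and Cyp3a25 (0.67) all were higher in Yap-/- than in Yap+/-, where Reg1 was lower. Reg3b was nearest to Mep1a (0.14), a brush border protease gene, Acss1 (0.21) and Tspan1 (0.23). For Reg3g the nearest were Car9 (0.20), Bmp3 (0.25) and Pycard (0.26). For Reg4 they were Cox7b (0.11), Aldh3a2 (0.12) and Pgm2 (0.13). The matches of Reg2, Aimp1, S100a1 and Ptpn2, only share a nearly flat profile. With a pseudocount of 0.1 the nearest genes of Reg1 and Reg3a kept 1 of 3, and with 5 those of Reg1 and Reg4 kept 0 of 3 and those of Reg3b 1 of 3.

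The remaining Reg row of the table, Reg3d, lies between Reg3b and Reg3a and was near the floor, at 0.629 RPKM in Yap+/- (28 reads), 1.28 in Yap-/- (68 reads), 0.939 in uninduced (33 reads) and 0 reads in induced organoids. Against the level of 3 reads it was at least 18.4-fold lower with doxycycline, and the exact 95% interval, which also covers the counting error of the 33 reads, reached down to 14.2-fold. In Yap-/- it was 2.04-fold higher (95% interval 1.30 to 3.29), with a log2 ratio of 0.49 on the scale of RPKM plus 1.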

How the data were processed

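RNA-seq of 4 organoid libraries was analysed, 1 per group, grouped by genotype and source labels. Per the labels, total RNA was purified on columns and a TruSeq RNA kit was used for the libraries. CASAVA 1.8, FastQC, TopHat 1.4.1 and mm9 are listed in the submitters' processing notes. The sources used here do not name the counter, annotation or strand setting. The deposited values were identified as RPKM from their spacing, since no header names the unit. All 4 columns were used (0 left out).

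Library totals were solved from GENCODE M21 gene lengths, and reads per gene from the fitting whole length (tolerance 0.005 reads), found for 17377 of 17378 genes above 0. Several lengths can fit. The annotated length was taken where it fitted, otherwise the fitting one nearest to the longest coding transcript. For all members but Reg2 this was also the shortest fitting length. Gene lengths for Reg1, Reg3a, Reg3b, Reg3g and Reg4 came out at 773, 837, 759, 774 and 1021 bases. Intervals are exact (Clopper-Pearson or Poisson, 95%, SciPy 1.17.1) and cover counting error only. They may be too narrow even for that, since PCR copies are not independent molecules. Log2 ratios use RPKM plus a pseudocount of 1, which understates differences of low genes, while folds are plain RPKM ratios. Having 1 library in each group, the design allows no test. Read recovery and calls were run on simulated data in which the annotated length was always the true one. In the real data that length was recovered for 6836 of the 17377 genes. The choice among several fitting lengths was therefore not tested by the simulation.

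The members and the 17 gene lists were chosen with earlier results of these data known, so they are not independent support. The genes set for naming were the members, Yap1, the 3 nearest genes per member, and the gene of each list furthest from 0 in each comparison. Some of these furthest genes are not reported above, among them Defa3, Retnlb, Gcg, Ghrl, Apoa4 and Krt8. Amy2a5, Cpa1, Itln1, Alpi, Ada, Nupr1 and the regional markers other than Fabp6, Cybrd1 and Ostb were named with their values known, and Lrrtm1 for its position. Pla2g2a, Lypd8, Mptx1 and Mptx2 had no row under these names. Promoter windows are RefSeq's (GRCm38.p6), transcripts GENCODE M21, aligned globally with Biopython 1.88. That build differs from mm9, so its coordinates are given for the windows only. Other settings tried were upper-quartile and median-ratio scaling, pseudocounts of 0.1 and 5, calls at 4-fold or by the counting interval, a floor of 5 RPKM or none, summing Reg3b with Reg3g, and the shortest fitting length.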

Additional observations from a re-analysis of the deposited data

How the results depend on the processing

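The 2 counts of members with doxycycline stayed within 1.5 times under every alternative run, and the other 4 did not. With a counting interval that excludes 1 in place of 2-fold, 2 members were higher and 2 lower with loss of Yap, and between the reference libraries 4 were higher and 1 lower. That rule calls 39.3% of all genes higher and 16.1% lower with loss of Yap, 36.9% and 45.3% with doxycycline, and 23.4% and 52.0% between the reference libraries. Between the reference libraries, the 1 member higher at 2-fold became 0 at 4-fold and 2 after median-ratio or upper-quartile scaling, as Reg4 crossed the threshold. With doxycycline 4 members were lower under 6 of these settings, 3 at 4-fold or with Reg3b and Reg3g summed, and 5 by the counting interval. Of 60 recomputed ratios of single members (2 other pseudocounts and 2 scalings), 59 kept their sign and 58 their side of 2-fold. The sign that differed was Reg4 with loss of Yap. Over all genes, higher and lower calls with loss of Yap were 66 and 112 at a pseudocount of 0.1, 20 and 19 at 5, and 1 and 8 at 4-fold, with 39 lower at a floor of 5 RPKM. With doxycycline they were 350 and 323 at a pseudocount of 5 and 191 and 121 at 4-fold. Between the reference libraries they were 198 and 213, 56 and 43, and 15 and 20 at pseudocounts of 0.1 and 5 and at 4-fold. The shortest fitting length changed the reads of Reg2 only, whose interval with loss of Yap widened from 0.341 to 3.92 to 0.190 to 7.65. No replicate could be left out with 1 library per group. No paired analysis was possible because each group has 1 library.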

Other observations

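Markers of position along the small intestine did not all go one way with loss of Yap or with doxycycline. In Yap+/- against uninduced YapTg organoids all 4 distal markers at the floor had log2 ratios below 0 (median -0.91). Of 5 proximal ones 4 lay above 0 (median 0.35). The shares of all genes past 2-fold were 0.336% higher and 0.57% lower with loss of Yap. They were 5.85% and 5.8% with doxycycline, and 1.11% and 0.726% between the reference libraries. Of 4 distal markers at the floor, 1 was higher and 1 lower with loss of Yap, 0 higher and 2 lower with doxycycline, and 0 higher and 2 lower in Yap+/- against uninduced YapTg organoids. Fabp6, the bile acid carrier gene of the ileum, was at 12.7, 5.77, 86.7 and 3.13 RPKM across the Yap+/-, Yap-/-, uninduced and induced libraries. Ostb, a bile acid exporter subunit gene, was at 16.3, 34.0, 27.1 and 5.17 RPKM, its partner Osta at 23.9, 18.4, 36.2 and 41.3, and the ileal bile acid uptake gene Slc10a2 at 5.80, 3.68, 13.8 and 27.6. Of 5 proximal markers, 0 were higher and 2 lower with loss of Yap, 0 higher and 2 lower with doxycycline, and 2 higher and 0 lower in Yap+/- against uninduced YapTg organoids. Cybrd1, a duodenal iron reductase gene, was at 42.2, 8.81, 17.4 and 2.18 RPKM in the same order of libraries, and the lactase gene Lct at 32.7, 50.1, 14.9 and 3.66. Gata4, the factor of the proximal small intestine, was at 34.6 to 44.4 RPKM and passed 2-fold in none of the 3 comparisons, nor did Onecut2. Which segment each line came from is not given in the labels, and its part in the Reg levels was not tested.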
